A study of Mus musculus with 13 samples.

Results

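Cornified envelope genes were followed in the RNA of mouse mammary tumors and of normal mammary glands. The set holds 10 genes of the 15213 in the expression table, namely Sprr1a, Sprr1b, Sprr2a1, Sprr2h, Ivl, Lor, Tgm1, Tgm3, Cnfn and Sbsn, and it was found by gene symbol. It was chosen on the measured difference between tumors and glands, so that the tumor and gland levels of these 10 genes are given as a description, with no p-value. Their calls are counted only beside those of all genes. The 10 tumors came from 6 MMTV-tTA TetO-Tsg101 females (genotype label MtTA Teto-TSG101wt), of which 3 gave 1 tumor, 2 gave 2 tumors and 1 gave 3 tumors. The 3 glands came from 3 wild-type FVB females, a strain widely used for mammary transgenes. In the transgenic line, the promoter of the mouse mammary tumor virus drives the transactivator tTA, which switches on a Tsg101 transgene in the absence of doxycycline, and this promoter is active mainly in mammary epithelium. The age and the reproductive state of the sequenced females are not given in the sources used here, and the glands held no transgene, so that the transgene, the age and the tumor state cannot be told apart. The labels name 2 sequencing sites without saying which libraries each of them made, so that a difference between sites cannot be told apart from that between tumors and glands.

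The cornified envelope is the protein shell that replaces the plasma membrane of keratinocytes when they complete their differentiation in the outer epidermis. Its precursors are small proline-rich proteins, involucrin and loricrin, which transglutaminases join to each other and to a desmosomal scaffold through cross-links between glutamine and lysine side chains. Many precursor genes lie side by side in the epidermal differentiation complex, a gene cluster on mouse chromosome 3. Normal mammary ducts do not cornify, whereas squamous areas of mammary tumors can form keratinised layers.

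Of the 10 genes, 6 lay in the epidermal differentiation complex (Lor, Sprr2a1, Sprr2h, Sprr1b, Sprr1a and Ivl), and Tgm1, Tgm3, Cnfn and Sbsn lay on chromosomes 14, 2, 7 and 7. The promoters of Sprr1a, Sprr1b, Ivl and Lor are shown because these genes are neighbors with very different levels in the same tumors. Each run below is the 250 bases before the transcription start, from the RefSeq promoter table of GRCm38.p6 (mm10), 5′ to 3′ on the strand of the gene, and all 4 genes are on the minus strand. They stand at chr3:92485882-92486131 for Sprr1a, chr3:92438780-92439029 for Sprr1b, chr3:92573736-92573985 for Ivl and chr3:92083143-92083392 for Lor. The starts are those of the promoter table. The RefSeq gene coordinates of Sprr1b and Ivl reach into these windows, to 92438817 and 92573790, so that distances from the start depend on the start used. Capitals mark matches to TGANTCA, the letters of an AP-1 site, which is the binding site of Fos and Jun factors.
Sprr1a: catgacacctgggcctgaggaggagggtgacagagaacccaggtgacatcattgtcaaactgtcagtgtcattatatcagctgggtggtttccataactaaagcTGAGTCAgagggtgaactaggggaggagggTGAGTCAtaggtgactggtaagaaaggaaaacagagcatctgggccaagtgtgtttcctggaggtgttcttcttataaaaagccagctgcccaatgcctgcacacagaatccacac
Sprr1b: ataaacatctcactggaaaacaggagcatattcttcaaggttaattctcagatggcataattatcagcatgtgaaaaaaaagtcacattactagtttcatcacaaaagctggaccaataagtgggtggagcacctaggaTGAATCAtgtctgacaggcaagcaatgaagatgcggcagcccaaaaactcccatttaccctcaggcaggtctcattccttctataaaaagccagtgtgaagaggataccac
Ivl: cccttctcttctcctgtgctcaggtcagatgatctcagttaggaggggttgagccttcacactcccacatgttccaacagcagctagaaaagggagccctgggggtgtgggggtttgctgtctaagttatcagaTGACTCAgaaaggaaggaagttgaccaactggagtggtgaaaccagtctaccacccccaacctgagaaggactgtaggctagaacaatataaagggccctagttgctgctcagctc
Lor: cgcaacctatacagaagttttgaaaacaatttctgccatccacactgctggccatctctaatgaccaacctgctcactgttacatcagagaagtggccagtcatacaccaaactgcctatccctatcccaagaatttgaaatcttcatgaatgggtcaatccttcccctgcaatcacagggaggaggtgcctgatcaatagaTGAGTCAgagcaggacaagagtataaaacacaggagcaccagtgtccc

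Sprr1a held 2 matches to TGANTCA, which began 146 and 116 bases before the start, and Sprr1b, Ivl and Lor held 1 match each, which began 111, 116 and 48 bases before the start. Over the 10 genes, 6 had at least 1 match in this window (the other two were Sprr2h and Sbsn), against 6.75% of all 32851 promoters of the table and 6.29% of the 11673 listed genes that had a promoter there. The letters TATAAA were found for 6 of the 10 genes, against 12.4% of all promoters and 8.87% of the listed genes with a promoter. GGGTGTG, a form of the sites bound by KLF factors, was found for 3 of the 10 genes. It was found in 6.93% of all promoters and for 8.92% of the listed genes with a promoter. Both strands were searched, and no TATAAA match overlapped a TGANTCA match in these genes. A match describes letters in this window and does not show that a factor was bound.

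The 4 small proline-rich genes belong to the SPRR1 and SPRR2 groups, whose coding sequences begin with a stretch rich in glutamine codons. The first 60 coding bases are shown from the GENCODE vM21 transcripts, because they show how alike the genes are to which short reads had to be assigned. Capitals mark bases that differ from Sprr1a at the same position.
Sprr1a: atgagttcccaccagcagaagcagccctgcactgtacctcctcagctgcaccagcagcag
Sprr1b: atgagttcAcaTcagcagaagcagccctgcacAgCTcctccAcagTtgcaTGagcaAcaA
Sprr2a1: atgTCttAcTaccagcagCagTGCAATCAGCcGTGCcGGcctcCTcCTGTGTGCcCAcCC
Sprr2h: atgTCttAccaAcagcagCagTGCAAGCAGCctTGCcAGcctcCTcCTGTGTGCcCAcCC

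Sprr1b differed from Sprr1a at 11 of these 60 bases, Sprr2a1 at 35 and Sprr2h at 34. Of all 75-base windows of the Sprr1a, Sprr1b and Sprr2h transcripts, none occurred in a transcript of another gene, and 75 bases is the read length of the study. By contrast, 94.3% of the windows of Sprr2a1 occurred also in Sprr2a2, Sprr2a3 or Sprr2b, so that the level of Sprr2a1 is uncertain. In Sbsn, 5.86% of the windows were shared with Tmem147os, an antisense gene, and the strand setting of the counting was not stated. The remaining genes, Ivl, Lor, Tgm1, Tgm3 and Cnfn, shared no window. The coding sequences differ strongly in their composition. CCN codons, which encode proline, made up 31.9% of the codons of Sprr1a, 30.7% of Sprr1b, 31.3% of Sprr2a1 and 42.6% of Sprr2h. Glutamine codons made up 26.7% of Ivl, and glycine codons made up 55.3% of Lor.

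Expression is given as normalized cpm, read counts divided by the effective size of the library, as cpm does with a further scaling factor for each library. The libraries held 6176269 to 16835397 reads in the tumors and 11672487 to 23889042 reads in the glands. The highest level that a count of 0 allows (3 reads) was between 0.128 and 0.366 normalized cpm in the glands. Tsg101 itself was listed at 49.9 to 101 normalized cpm in the tumors and at 45.6 to 61.0 in the glands (log2 fold change 0.30 ± 0.20 SE, adjusted p = 0.279, limma without a filter on low values), and reads of the transgene and of the endogenous gene cannot be told apart in these values. Luminal epithelial markers were present in both groups, at a summed level of 1668 to 3299 in the tumors and 1808 to 3775 in the glands. Some libraries stood apart: skeletal muscle markers summed to 1900 in tumor 4 and to 323 in tumor 10 against a tumor median of 3.60, and the ribosomal RNA gene Rn45s took 27.4% of the reads of tumor 9.

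Sprr1a, an early and stress-responsive envelope precursor, ranged from 99.6 to 776 normalized cpm in the tumors with a median of 159. The glands were at 0.0856, 0 and 0 normalized cpm, which corresponds to 2 reads in gland 1. Tumors 3 and 7 stood above the other 8 tumors, and the tumors and the glands did not overlap. The mean of the tumors was 268 ± 246 (SD, n = 10), and its ratio to the pooled level of the glands was 6814, with a 95% counting interval of 1886 to 56262 from the 2 gland reads. Without gland 1, which held both reads, the mean was at least 1028-fold above the floor of the other glands. In bulk tissue, more cells that express a gene and more RNA per cell cannot be told apart, and this holds for each level given here.

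Sprr1b, the close neighbor of Sprr1a in the complex, ranged from 0.420 to 64.7 normalized cpm in the tumors with a median of 6.32, and all 3 glands were at 0 reads. Tumor 7 held the highest level, and without it the highest tumor was at 9.04. The mean of the tumors, 10.9 ± 19.1 (SD, n = 10), was at least 50.5-fold higher than the mean floor of the glands, or at least 22.9-fold without tumor 7. Each such bound would be 1.53 times higher without gland 3, the shallowest gland library. Sprr2h, a member of the SPRR2 group, ranged from 0.180 to 54.0 with a median of 3.78, again with tumor 7 highest, tumor 1 lowest and all 3 glands at 0 reads. Its tumor mean was at least 40.9-fold above the floor of the glands, or at least 17.8-fold without tumor 7. Sprr2a1 was rarely detected, with 1 to 34 reads and 0.120 to 3.57 normalized cpm in the tumors and 0 reads in the glands. Since most of its windows also occur in near-identical copies, reads of those copies may be included or missing here.

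Ivl encodes involucrin, an early precursor that lines the membrane before the other proteins are attached. It ranged from 6.62 to 43.1 normalized cpm in the tumors with a median of 10.9, and the 3 glands were at 0 reads. Apart from tumor 7 the tumors lay close together, with the highest of the other 9 at 18.9. The tumor mean of 14.2 ± 10.8 (SD, n = 10) was at least 65.4-fold above the floor of the glands. Lor encodes loricrin, the glycine-rich main precursor of the late epidermal envelope. It ranged from 0.120 to 7.66 normalized cpm in the tumors with a median of 1.24, and the glands were at 0.300, 0.207 and 0.122. Tumor 1 held 2 Lor reads and lay at the level of the lowest gland, while 9 of the 10 tumors lay above all 3 glands. The mean level of Lor was 8.54 times that of the glands, or 5.43 times without tumor 7.

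Both transglutaminases were also detected in the glands. Tgm1, the membrane-bound keratinocyte transglutaminase, was expressed in both groups, at 24.9 to 109 normalized cpm in the tumors with a median of 33.1 and at 32.4, 31.6 and 18.5 in the glands. The 2 groups overlapped, and 5 of the 10 tumors lay above all glands. The ratio of the means was 1.75. Tgm3, the soluble enzyme known from the upper epidermis and the hair follicle, ranged from 0.0600 to 45.2 in the tumors with a median of 4.87, against 0.685, 0.258 and 0.244 in the glands. Tumor 1 held a single Tgm3 read and lay below all glands, whereas the other 9 tumors lay above them. The mean level was 22.6 times that of the glands, 12.5 times without tumor 7 and 35.7 times without gland 1.

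Cnfn encodes cornifelin, a protein of the cornified envelope, and Sbsn encodes suprabasin, a secreted protein of suprabasal keratinocytes. Cnfn ranged from 21.6 to 195 normalized cpm in the tumors with a median of 39.4, and all 3 glands were at 0 reads. Its tumor mean of 64.4 ± 62.8 (SD, n = 10) was at least 298-fold above the floor of the glands. As for Sprr1a, tumors 3 and 7 were the highest. Sbsn ranged from 117 to 507 with a median of 160 in the tumors and was at 11.3, 9.50 and 20.1 in the glands. The groups did not overlap, and the mean of the tumors was 14.4 times that of the glands. Apart from Tgm1, Sbsn was the only gene of the 10 with more than 1 normalized cpm in every gland.

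**Figure D1:**
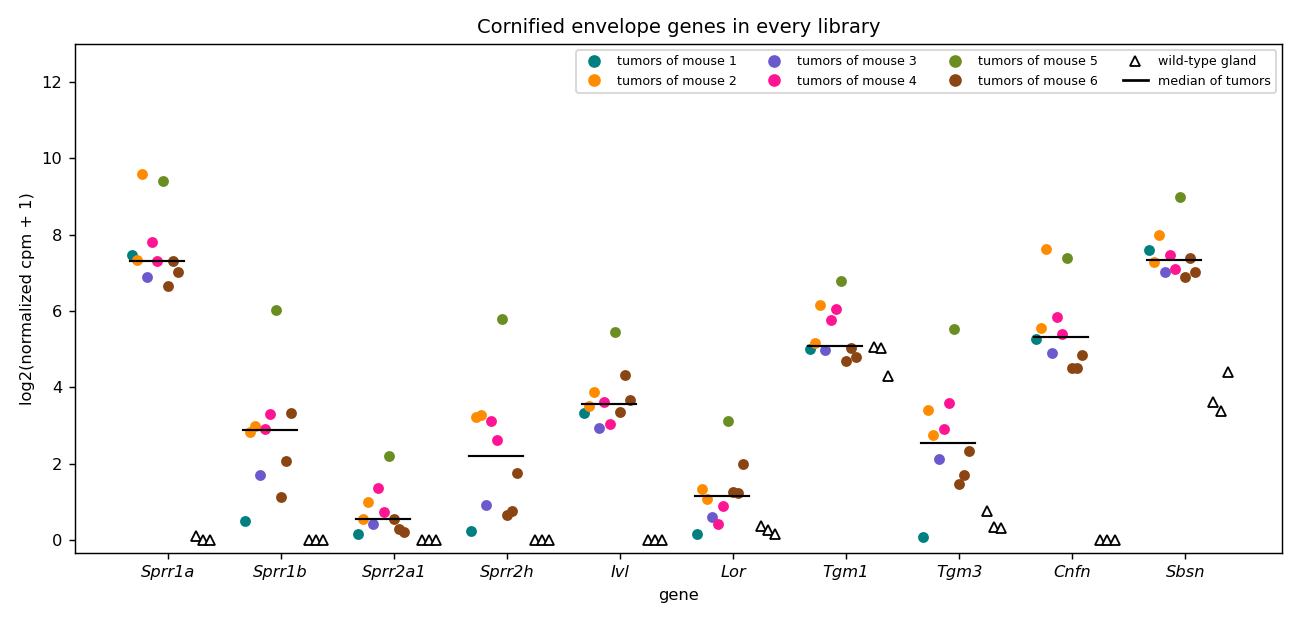
Level of each of the 10 genes in every library as log2(normalized cpm + 1), with tumors as circles colored by mouse, wild-type glands as open triangles and the tumor median as a line. Tumor 7, the only tumor of its mouse, is highest for 8 of the 10 genes, and for Tgm1 2 of the 3 glands lie among the tumors.

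All 10 tumors lay above all 3 glands for 7 of the 10 genes, and the exceptions were Lor, Tgm1 and Tgm3. Among all 15213 genes, 11.4% had all tumors above all glands and 10.3% had all tumors below all glands. Of the 10 genes, 6 passed an FDR of 0.05 with more than a 2-fold rise in limma without a filter on low values, against 10.5% of all listed genes called higher and 10.1% called lower. On the recovered counts, edgeR called 8 of the 10 higher, against 12% of all listed genes called higher and 11.3% lower, and DESeq2 called 9 of the 10 higher, against 13.4% higher and 11.3% lower. The filter of the methods drops a gene whose normalized cpm is no higher than 5 in most libraries. Since 10 of the 13 libraries are tumors, a gene can pass it through the tumors alone but not through the 3 glands alone. Of the 10 genes, 5 passed the filter (Sprr1a, Ivl, Tgm1, Cnfn and Sbsn). Of these, 4 were called higher, against 10.2% of the 11795 filtered genes called higher and 6.99% called lower. Because the genes were chosen on this contrast, nothing is read from these counts. The median log2 fold change was 2.46 for the 10 genes, or 4.51 with genes at 0 reads in all glands set to their lower bound, and 0.01 for all listed genes.

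To compare levels between genes, each value was divided by the length of the exons of the gene in GENCODE vM21, and the resulting quantity is normalized cpm per kb of exon. Sprr1a stood first with a tumor mean of 332 ± 305 (SD, n = 10), followed by Cnfn at 89.6 ± 87.3 and Sbsn at 54.2 ± 32.2. Sprr1a was above Cnfn in all 10 tumors, whereas Cnfn was above Sbsn in 7 of the 10 tumors. With the longest transcript in place of all exons, Sbsn rose to 79.8 and Cnfn to 92.3, and their order is thus not settled. Tgm1 (15.2), Sprr1b (13.2) and Sprr2h (11.8) followed with means that differed by less than their spread over the tumors. Tgm1 was above Sprr1b in 8 tumors, Sprr1b was above Sprr2h in 7, and Sprr2h was above Ivl (7.36) in 5 of the 10 tumors. Tgm3 (2.17), Lor (1.01) and Sprr2a1 (0.286) closed the order, and Tgm3 was above Lor in 6 of the 10 tumors. Sprr1a was above Lor in each of the 10 tumors, by 95.7 to 3237 times with a median of 331. The largest ratio was that of tumor 1 and rested on 2 Lor reads. In the glands Tgm1 stood first per length at 8.70 ± 2.46 (SD, n = 3), followed by Sbsn at 3.76 ± 1.57.

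**Figure D2:**
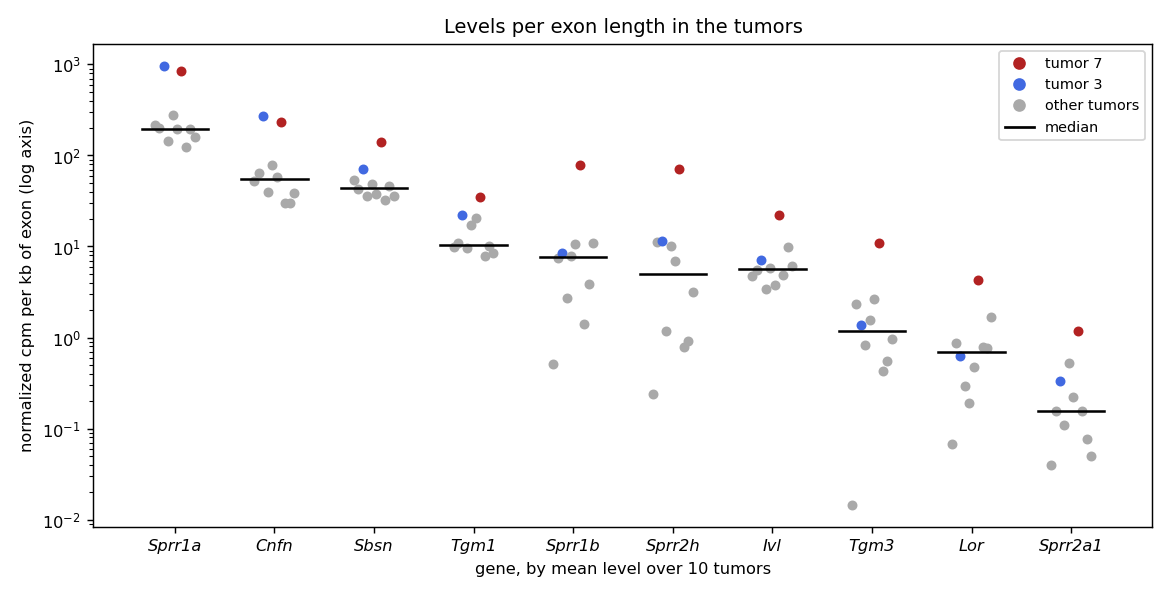
Tumor levels of the 10 genes in normalized cpm per kb of exon on a log axis, ordered by the mean over 10 tumors, with tumors 7 and 3 in color and the median as a line. Sprr1a stands above the next gene in all 10 tumors, and tumor 1 is the lowest point for Sprr1b, Sprr2h, Tgm3, Lor and Sprr2a1.

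Among the tumors, the genes fell into different patterns. Sprr1a and Cnfn followed each other closely, and the ratio of Sprr1a to Cnfn per length lay between 3.10 and 6.46 in all 10 tumors. By contrast, the ratio of Sprr1a to Sprr1b ranged from 10.8 in tumor 7 to 431 in tumor 1, which held 7 Sprr1b reads. Sprr1b was most like Tgm3, with a Pearson r of 0.94 over the 10 tumors on the log2 scale, while r was 0.63 between Sprr1a and Sprr1b. Lor and Cnfn were the least alike, with an r of 0.37. Lor had only 2 to 73 reads in the tumors, so that counting error enters each r of Lor. Each gene was also set against the mean standardised level of the other 9 genes, and r lay between 0.65 for Lor and 0.93 for Sprr2h. Without tumor 7, r was 0.01 for Lor and 0.25 for Ivl but 0.87 for Sprr2h, 0.80 for Cnfn and 0.78 for Tgm1. Without tumors 3 and 7, which lay farthest from the median of the mean standardised level, r was 0.91 for Sprr2h, 0.08 for Sbsn and -0.05 for Lor. These values describe 10 tumors of 6 mice that are not independent, and no p is given.

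**Figure D3:**
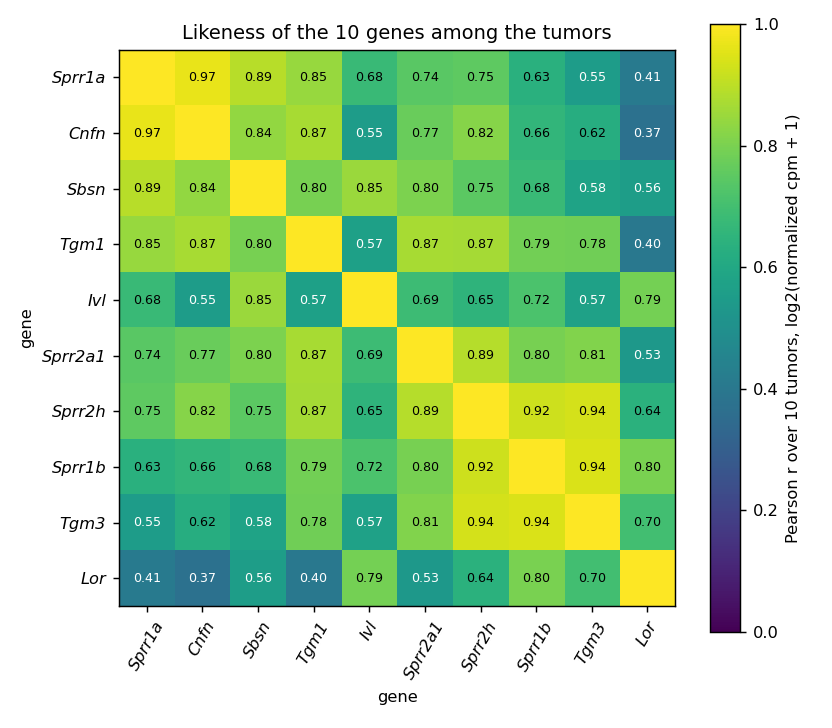
Pearson r between the log2(normalized cpm + 1) of each pair of genes over the 10 tumors. Sprr1a and Cnfn form the closest pair at 0.97, Sprr1b, Sprr2h and Tgm3 lie at 0.92 to 0.94, and Lor and Cnfn are lowest at 0.37.

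The mean log2 level over the 10 genes was 2.98 in tumor 1, the lowest tumor, and 6.07 in tumor 7, with a median of 3.85, and it lay between 0.90 and 0.99 in the glands. The second highest was tumor 3 at 4.64. Tumors of a shared mouse were not always alike. Tumors 2 and 3 came from the same female, and Sprr1a was 4.81-fold higher in tumor 3, while their median difference over the 10 genes was 1.67-fold. Tumors 5 and 6 of another female differed by a median of 1.45-fold and at most by 2.49-fold. Tumors 8, 9 and 10 of the female with 3 tumors ranged over a median of 2.10-fold, with a maximum of 7.68-fold.

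The 5 genes whose levels most resembled the mean standardised level of the 10 genes over the 10 tumors, out of 11790 compared, were Cdsn, Krt16, Klk6, Gltp and Ide. Cdsn, which encodes the desmosomal adhesion protein corneodesmosin, had an r of 0.98 and ranged from 10.3 to 256 normalized cpm. Krt16, a keratin of activated epidermis, had an r of 0.97 and ranged from 57.3 to 745. Klk6, a secreted serine protease, had an r of 0.96 and ranged from 81.5 to 941. Tumor 7 was the highest for each of these, and without it r was 0.93 for Cdsn, 0.90 for Krt16 and 0.87 for Klk6. Gltp, a glycolipid transfer protein, and Ide, an insulin-degrading protease, had an r of 0.96 each. Their tumor and gland levels overlapped, with log2 fold changes of 0.79 ± 0.44 (SE) and 0.22 ± 0.26 and adjusted p = 0.198 and 0.570 (limma without the filter).

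Other genes of cornification were taken from 8 lists that hold 87 listed genes besides the 10. In limma without the filter, 52 of the 87 were called higher in the tumors (10.5% of all genes) and 3 were called lower (10.1% of all genes), and 32 were not called. On the recovered counts, edgeR called 69 (12% of all genes) and DESeq2 71 (13.4% of all genes) of the 87 higher, so that the number of genes that did not pass depends on the test. With the filter, 37 of the 54 remaining genes were called higher (10.2% of all filtered genes) and 3 lower (6.99%). This split is partly set in advance, because a gene can pass the filter through the tumors alone but not through the glands alone. Sprr4, Crct1, Flg, Hrnr and Rptn passed it with 0 reads in all glands. All 10 tumors lay above all glands for 56 of the 87, against 11.4% of all genes. The median log2 fold change of the 87 was 1.96, and 3.20 with genes at 0 reads in all glands set to their lower bound. The highest tumor was tumor 7 for 73 of the 87 genes. Adjusted p-values are from limma without the filter, with Benjamini-Hochberg adjustment over all 15213 genes.

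The other small proline-rich genes had 8 listed members, all at 0 reads in the glands, of which 2 rose and 6 did not pass the test. Sprr4 ranged from 3.24 to 42.2 normalized cpm with a median of 8.21, and its mean was at least 55.7-fold above the floor of the glands (adjusted p = 0.000501). Sprr2a3, a near-identical copy of Sprr2a1, had a median of 3.50 and a mean at least 36.7-fold above the floor, or at least 21.5-fold without tumor 7 (adjusted p = 0.0250), and its call was lost without any 1 of the 3 glands (adjusted p = 0.0553 to 0.0825). The late cornified envelope list held 17 listed genes, namely 15 Lce genes with Kprp and Crct1, which are not Lce genes. Of the 17, 6 rose and 11 did not pass the test, and all were at 0 reads in the glands. Crct1, a cysteine-rich protein gene of the complex, led them at 20.5 to 378 normalized cpm with a median of 81.2 (at least 547-fold, adjusted p = 4.46e-06). Lce1a1 followed with a median of 3.94 (at least 25.8-fold, or 16.9-fold without tumor 7, adjusted p = 0.00427).

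In the filaggrin family, whose members bundle keratin filaments or form part of the hair sheath, 6 of 7 rose. Rptn, which encodes the envelope precursor repetin, ranged from 69.3 to 837 normalized cpm with a median of 155 and was at 0 reads in the glands (at least 1138-fold, adjusted p = 4.81e-07). Tchh, which encodes trichohyalin of the inner root sheath, ranged from 94.0 to 1912 with a median of 268, against 6.72 to 13.1 in the glands (log2 fold change 4.92 ± 0.75 SE, adjusted p = 0.000169). Flg itself, named after its values were seen, had a median of 6.47 and was at 0 reads in the glands. Of the 11 scaffold and suprabasal genes, 10 rose. Krtdap, a keratinocyte differentiation gene, had a tumor median of 180 (log2 fold change 7.44 ± 0.50, adjusted p = 1.20e-07), and Dmkn, which encodes dermokine, had a median of 305 (6.60 ± 0.49, adjusted p = 2.34e-07). Gland 3 held 10.6 normalized cpm of Dmkn against 0.814 and 1.08 in the other glands, and without it the log2 fold change was 7.46. Krtdap and Dmkn lie beside Sbsn on chromosome 7.

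The other transglutaminases did not move together. Tgm5, an epidermal enzyme, rose from 0 to 0.103 normalized cpm in the glands to a median of 7.09 in the tumors (adjusted p = 3.22e-05), with a ratio of 230 and a counting interval of 63.8 to 1902 from 2 gland reads. Without gland 2, which held both reads, Tgm5 was at least 36.6-fold above the floor. Tgm6 had a median of 2.46, was at 0 reads in the glands and lay at the edge of the threshold (adjusted p = 0.04997), and its call was lost in 10 of the 13 fits that leave out a single library. It was also lost with a correlation between tumors of a mouse (adjusted p = 0.0520) and with the mean level per mouse (adjusted p = 0.125). Tgm2, the widely expressed tissue transglutaminase, was lower in the tumors, with a median of 64.9 against 86.7 to 265 in the glands (log2 fold change -1.35 ± 0.45, adjusted p = 0.0337), but leaving out gland 1 gave an adjusted p of 0.150, gland 2 an adjusted p of 0.185, and tumor 5 or 10 an adjusted p of 0.0508 each, so that the call was lost. Of the 5 listed, 2 rose, 1 fell and 2 did not pass the test.

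Among 14 enzymes of the lipid envelope, which coats the protein shell, 11 rose and 1 fell. Elovl4, which elongates very long fatty acids, had a median of 93.3 normalized cpm against 0.642 to 1.14 in the glands (log2 fold change 5.80 ± 0.41, adjusted p = 1.65e-07), and Pnpla1, which attaches linoleate to ceramides, had a median of 13.1 (3.95 ± 0.42, adjusted p = 5.82e-06). Ugcg, which makes glucosylceramide, was below all glands in all 10 tumors (-1.90 ± 0.32, adjusted p = 0.000361). Of 13 proteases and inhibitors of cornification, 9 rose and none fell. Cst6, a cystatin that inhibits cathepsins, ranged from 312 to 2219 normalized cpm against 0.465 to 1.34 in the glands (8.88 ± 0.55, adjusted p = 5.27e-08), and Asprv1, which processes filaggrin, had a median of 305 (6.36 ± 0.48, adjusted p = 2.67e-07). At an unadjusted p under 0.05, 4 of the 87 genes were lower in limma, and edgeR and DESeq2 called 3 lower each.

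Of 12 regulators of terminal differentiation, 6 rose, 1 fell and 5 did not pass the test. Grhl3, a transcription factor of the epidermal barrier, had a median of 12.9 normalized cpm against 0.155 to 0.366 in the glands (log2 fold change 3.57 ± 0.38, adjusted p = 6.14e-06). Trp63, the p63 gene of stratified epithelia, had a median of 167 against 23.2 to 28.6 (2.68 ± 0.24, adjusted p = 1.29e-06). Cebpa, which encodes a factor of both keratinocytes and adipocytes, was below all glands in all 10 tumors, with a median of 62.8 against 139 to 256 (-1.74 ± 0.29, adjusted p = 0.000323).

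**Figure D4:**
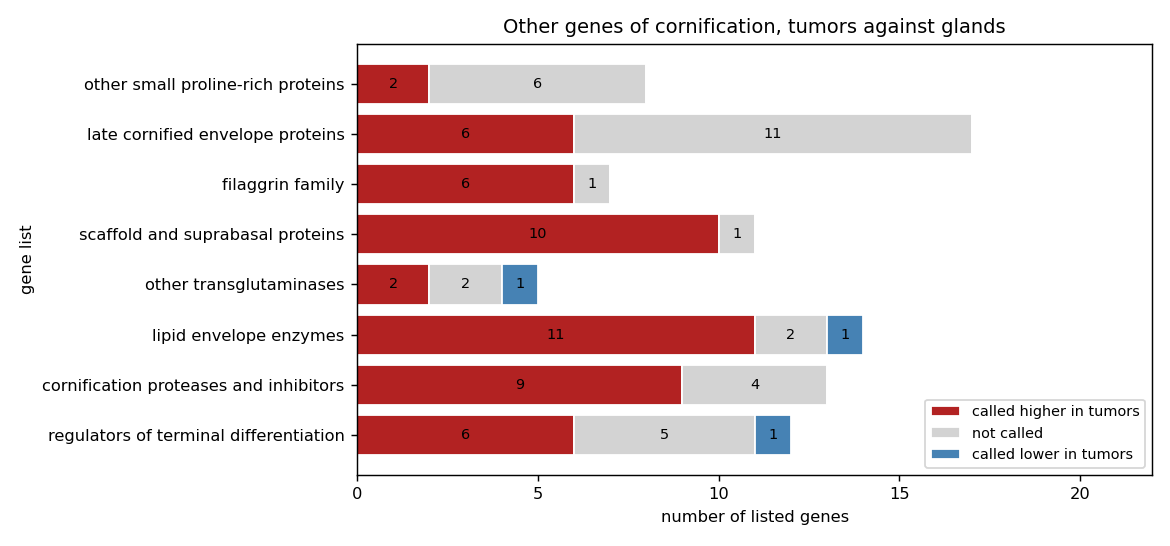
Number of listed genes called higher, not called or called lower in the tumors against the glands in each of 8 lists (limma without the filter, FDR of 0.05 and more than 2-fold). Calls are mostly higher in the scaffold, lipid, protease and filaggrin lists, and most genes of the 2 lists of late envelope and small proline-rich proteins were not called.

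The epidermal differentiation complex was also read by position, from S100a1 to S100a10 on chromosome 3. Besides the 6 envelope genes of the set, 47 listed genes lay there, of which 26 were called higher and none lower (limma without the filter), against 10.5% and 10.1% of all genes. No gene of the 47 was lower at an unadjusted p under 0.05, and edgeR and DESeq2 called 42 and 43 higher and none lower. All 10 tumors lay above all glands for 32 of the 47, against 11.4% of all genes, and 34 were at 0 reads in all glands. By family, the test was passed by 9 of 12 S100 genes, which encode calcium-binding proteins, by 6 of 7 genes of the filaggrin family, by 2 of 8 other Sprr genes, by 4 of 15 Lce genes and by all 5 remaining genes (Pglyrp4, Pglyrp3, Prr9, Kprp and Crct1). Prr9, a proline-rich gene between Lor and Sprr2a1 that was singled out after its values were seen, had a median of 152 normalized cpm and was at 0 reads in the glands. Of the 20 listed genes on either side of the complex, 1 and 2 were called higher and 1 and 2 lower.

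**Figure D5:**
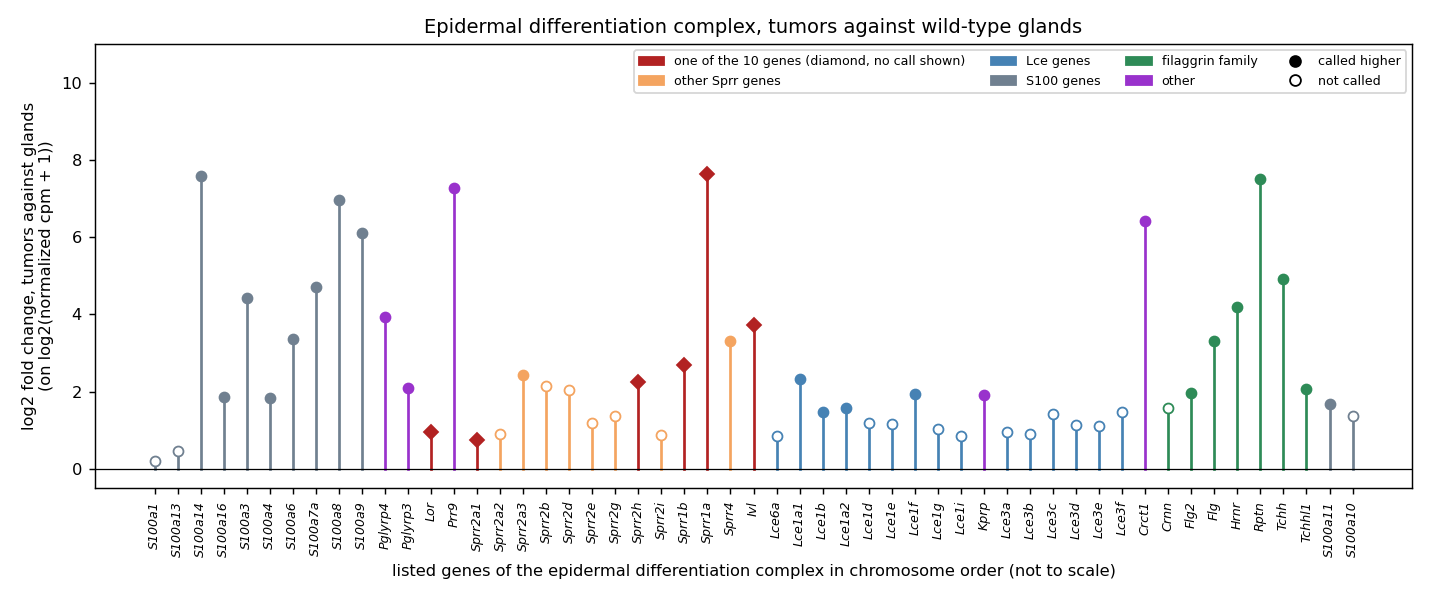
Log2 fold change, on log2(normalized cpm + 1), of every listed gene of the epidermal differentiation complex in chromosome order. Diamonds are the envelope genes of the set, for which no call is shown, filled circles were called higher and open circles were not called, and all 47 other genes lie above 0.

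Markers of other cell types differed between the tumors as well. Beside the marker calls below, 10.5% of all listed genes were called higher and 10.1% lower in limma without the filter. The 14 hair follicle markers summed to 438 to 3550 normalized cpm in the tumors with a median of 815 and to 263 to 564 in the glands. Of them, 10 were called higher and 1 lower, and their highest sum was in tumor 7. The sum includes Tchh and Padi3, which are also counted in the lists of cornification genes. Their highest levels were 1912 and 216, both in tumor 7, so that this peak is not separate from those lists. Krt31, Krt33a, Krt35, Dsg4 and Hoxc13, which define the hair shaft, were at 0 reads in all glands. The 4 sebaceous gland markers summed to 8.09 to 23.0 in the tumors and to 9.76 to 34.3 in the glands, and 1 was called higher. The 6 basal markers summed to 1076 to 4563 in the tumors and to 367 to 789 in the glands, with 5 called higher and 1 lower, and were highest in tumors 7 and 3. The 5 myoepithelial markers, of the same cell layer, were all called lower, at 34.9 to 119 in the tumors against 588 to 2069 in the glands. Of the 4 neutrophil markers, S100a8 and S100a9 lie in the epidermal differentiation complex, are known from keratinocytes too, and gave 3871 of the summed 3884 normalized cpm in tumor 7. The other two, Retnlg and Camp, summed to 2.36 to 84.4 in the tumors, with tumor 9 highest and tumor 7 below the median of 13.5, against 0.0516 to 2.19 in the glands, and 1 of them was called higher. The part of these cells, and of skin that may have been taken with the tissue, in the levels of the envelope genes was not tested. Adipocyte markers were lower in the tumors, at 12.1 to 387 against 3259 to 10875, as were milk genes, at 1309 to 49195 against 117394 to 175636. Endothelial markers summed to 39.0 to 93.0 in the tumors against 167 to 454, with 4 of 5 called lower. Of 9 lymphocyte markers, 8 were called lower, though their sums overlapped, at 12.2 to 133 against 30.0 to 576. Of 5 macrophage markers, 2 were called higher and none lower. Scaling to epithelial genes moved the median of all genes by -0.55 on the log2 scale and the calls among the filtered genes from 1204 higher and 825 lower to 654 higher and 2364 lower.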

How the data were processed

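RNA sequencing covered 10 tumors of 6 mice and 3 glands of 3 mice. The authors mapped 75-base paired-end reads to mm10, obtained counts per gene from featureCounts and scaled them in edgeR. The signal values they deposited are counts over an effective library size, here called normalized cpm, and 100% of the values were whole multiples of 1 read (tolerance 0.01 reads), so that read counts were recovered. The groups were taken from the labels. The planned test had assumed counts. Since the values are normalized, limma 3.58.1 was fitted to log2(normalized cpm + 1) for all genes and 13 libraries with tissue (tumor or gland) as the single term and a variance trend, and this understates changes of low genes. A gene was called at an FDR of 0.05 (Benjamini-Hochberg) and more than 2-fold. Tumors of a mouse were taken as separate samples. edgeR 4.0.16 and DESeq2 1.42.0 on the recovered counts, in R 4.3.3, were alternatives. Coordinates are from RefSeq GRCm38.p6. The 10 genes and the lists were chosen with earlier results of these data known. The genes named in the lists were the 2 largest rises and the 2 largest falls among the calls without the filter, and the nearest genes were the 5 with the highest Pearson r. Shared replicate numbers mark different mice and do not pair the samples. Intervals and floors cover counting error only.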

Additional observations from a re-analysis of the deposited data

Results flagged for a closer look

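The gap of a sample to its nearest neighbor, relative to the range of the 10 tumors on the log2(normalized cpm + 1) scale, passed the critical value in tumor 7 for 4 of the 34 genes examined. The critical value would be passed by chance in about 1 in 20 groups of independent samples, which does not hold here, since the tumors share mice and the genes were chosen on these data and vary together, so that the flags are a description. The relative gap was 0.490 for Sprr1b, 0.471 for Sbsn, 0.513 for Dmkn and 0.514 for Ugcg. Tumor 7 was the highest in each case. It was the only tumor of its mouse and also held the highest hair follicle and basal marker levels, whose part in these values was not tested. The hair follicle markers share Tchh and Padi3, and the basal markers share Trp63, with the lists of cornification genes.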

How the results depend on the processing

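Counts for all genes are from the 11795 filtered genes and counts for lists from the fit without the filter, unless stated. The calls for all genes depended most on the scaling, the block and the filter. Scaling to epithelial genes gave 654 genes higher and 2364 lower, and no filter gave 1538 lower. For the other cornification genes, the calls lower were 5 with epithelial scaling. For the complex, the calls higher were 16 with a pseudocount of 5, 42 with edgeR, 43 with DESeq2 and 16 with the filter. The mean log2 ratio of Sprr1a to Sbsn per length was 1.81 with the longest transcript. That choice moved the tumor mean of Sbsn from 54.2 with all exons to 79.8 and left Sprr1a at 332, so that the ratio was higher with all exons. The replicate block, fitted only because replicate numbers 1 to 3 occur in both groups, gave 362 genes higher and 182 lower (547 and 564 without the filter), 1 other cornification gene lower and 17 genes of the complex higher. Deviations of same-numbered samples correlated at -0.58, 0.04 and -0.66, so that the numbers do not pair the samples.

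Leaving out each library in turn gave 1003 to 1537 genes higher and 658 to 1123 lower (1279 to 1895 and 1244 to 1749 without the filter), 4 to 7 of the 10 envelope genes higher (chosen on this contrast, so that nothing is read from it), 42 to 56 other cornification genes higher and 2 to 3 lower, and 19 to 29 genes of the complex higher. Without tumors 3 and 7, or without tumors 4, 9 and 10, both chosen after seeing the data, 53 and 48 other cornification genes and 26 and 21 genes of the complex were called higher, against 1541 and 1453 of all 15213 genes. With the mean level per mouse, 45 other cornification genes and 20 genes of the complex were called higher, against 1475 of all 15213 genes, and with a correlation between tumors of a mouse, 51 and 26, against 1581. Epithelial scaling turned the balance of calls over all genes from higher to lower. Among the 10 genes and the genes named in the lists, no fold change reversed its sign in any setting. Among the genes named in the lists, the calls of Sprr2a3, Lce1a1, Tgm6, Tgm2 and Cebpa were lost in 30 combinations of gene and setting. The calls of the 10 genes were only counted and did not all hold. Their number was 6 in the main fit, 4 with a pseudocount of 5 or with the mean level per mouse, and 9 with DESeq2. The call of Tgm6 was lost without any of tumors 2, 3, 5, 6, 8, 9 and 10 or any gland, and the cause was not tested.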
